A study of Homo sapiens with 6 samples.

Results

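The members of this account are the regions of 4 genes that code for parts of the epithelial junction and its filaments: the cadherins CDH1 and CDH2 and the keratins KRT7 and KRT8. They were taken by gene symbol from a table of 14686 genomic regions in which 3′ ends of polyadenylated RNA gather. Each gene has 1 region there, so 4 regions stand for 4 genes, and every value of each is used. The values come from 6 libraries of the H9 line at passage 51, established cells of human embryonic origin known as human embryonic stem cells (hESCs). Of these, 3 were made from endoderm cells derived from hESCs by 6 days of activin A at 100 ng/ml, and 3 from undifferentiated hESCs. By its label, each library of a set belongs to G1, G1/S or S, with 1 library for each.

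Sampling hours in the order G1, G1/S, S were 0, 3 and 6 for endoderm and 0, 2 and 3 for hESCs, so the G1/S and S libraries differ in hours between the types. Serum in the endoderm medium was stepped up from 0% over 0.2% to 2%, and a change of medium is given for day 3. The hESCs grew on Matrigel in medium conditioned by mouse embryonic fibroblasts. Serum and medium therefore go with cell type and cannot be told apart from it. How cells were brought into phase is not given in the sources used here. All libraries come from 1 passage of 1 line, and p-values measure only the spread among them.

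Classical cadherins are transmembrane proteins that hold neighbouring cells together by binding the same cadherin on the next cell, and their tails carry catenins that reach the actin cytoskeleton. CDH1 (E-cadherin) is the cadherin of most epithelia and of pluripotent cells, and CDH2 (N-cadherin) that of neural, mesodermal and many migrating cells. Replacement of CDH1 by CDH2 is known as the cadherin switch and accompanies gastrulation, when cells leave the epiblast to form mesoderm and endoderm. Keratins build the intermediate filaments of epithelial cells as pairs of a type II and a type I chain. KRT8 is a type II keratin of simple, single-layered epithelia and pairs mainly with KRT18, and KRT7 is a type II keratin found in fewer simple epithelia, among them ducts and trophoblast.

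Values are reads divided by 1 size factor per library and are called signal. The libraries hold 2502792 to 5389666 reads in endoderm and 4194957 to 6203079 reads in hESCs, and 3 reads, the limit that a count of 0 allows, correspond to a signal of 2.07 to 5.13 and of 1.77 to 3.12. Counting intervals are exact 95% Poisson intervals and take in no error beyond counting, as PCR copies of a molecule are read more than once. Endoderm identity was visible in 9 of 10 measured definitive endoderm markers, which were higher in endoderm, with SOX17 at 200, 111 and 154 in endoderm at G1, G1/S and S against 4.54, 1.04 and 1.77 in hESCs. Of 11 measured pluripotency markers, 1 was higher in endoderm (GDF3) and 4 were lower (SOX2, DNMT3B, UTF1 and LCK). The other 6 did not pass, and the median log2 difference of the list was -0.01. POU5F1 was among these 6, with a log2 difference of -0.01 ± 0.37 (SE, 95% interval -0.88 to 0.86). Of all regions tested with limma, 6.9% were called higher in endoderm and 7.6% lower. GC content sets some libraries apart: the rank correlation across regions between a transcript's GC content and its deviation from the mean over libraries was 0.24 in endoderm G1/S and 0.43 in hESC G1/S, against -0.40 in endoderm G1, -0.17 in endoderm S, 0.0043 in hESC G1 and -0.11 in hESC S. Endoderm G1 thus lies farthest to the side of low GC content and both G1/S libraries to the other. Results for each gene are therefore given also without the G1/S libraries. As the fit pairs libraries by phase label, leaving out 1 library gives the same difference as leaving out both of that phase. Such fits are not independent checks. Without endoderm G1 the log2 differences between endoderm and hESCs were -2.23 for CDH1, 1.93 for CDH2, -2.25 for KRT7 and 2.78 for KRT8, and all 4 passed.

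The positions are as deposited, and the submitters' processing notes name the builds hg18 and NCBI36. CDH1 is on chromosome 16 from 67426720 to 67426942, plus strand. CDH2 is on chromosome 18 from 24010914 to 24011066, minus strand. KRT7 and KRT8 share chromosome 12, where KRT7 lies from 50928706 to 50928925 on the plus strand and KRT8 from 51577369 to 51577494 on the minus strand. Strand was read from the order of the 2 positions, which matched a later annotation in 99.7% of 8834 named regions. No exon or transcript end is given, as annotation of this build was not at hand. KRT8 has 50 processed or other pseudogenes that bear its name in that annotation, KRT18 has 67, and CDH1, CDH2 and KRT7 have 0. How reads that fit several copies were assigned is not given in the sources used here, so levels of KRT8 and KRT18 are less certain than the others.

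The promoters of CDH2 and KRT8, which both rose in endoderm, are shown to let their sequences be compared. Each runs from 250 bases before to 50 after a start site, from RefSeq on GRCh38.p14, written 5′ to 3′ on the gene's strand. CDH2 has an outer start (chr18:28177081-28177380, minus strand) and an inner start (chr18:28036592-28036891, minus strand), and KRT8 is shown at chr12:52926420-52926719, minus strand. Capitals mark matches, on either strand, to the FOXA motif TGTTTNC, the GATA motif AGATAA, the E-box CAGGTG bound by SNAI and ZEB factors, or the TATA box TATAAA.
CDH2 outer start: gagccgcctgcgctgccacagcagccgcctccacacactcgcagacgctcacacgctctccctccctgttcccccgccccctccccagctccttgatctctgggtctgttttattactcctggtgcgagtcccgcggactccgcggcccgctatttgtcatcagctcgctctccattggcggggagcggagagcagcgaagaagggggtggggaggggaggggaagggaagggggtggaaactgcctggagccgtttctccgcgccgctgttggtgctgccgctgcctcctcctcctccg
CDH2 inner start: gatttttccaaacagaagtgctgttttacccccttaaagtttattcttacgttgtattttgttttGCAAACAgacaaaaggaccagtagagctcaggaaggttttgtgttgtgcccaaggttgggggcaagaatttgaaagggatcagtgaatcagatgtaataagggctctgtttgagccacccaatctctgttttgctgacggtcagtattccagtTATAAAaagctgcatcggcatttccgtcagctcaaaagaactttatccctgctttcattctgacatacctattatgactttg
KRT8: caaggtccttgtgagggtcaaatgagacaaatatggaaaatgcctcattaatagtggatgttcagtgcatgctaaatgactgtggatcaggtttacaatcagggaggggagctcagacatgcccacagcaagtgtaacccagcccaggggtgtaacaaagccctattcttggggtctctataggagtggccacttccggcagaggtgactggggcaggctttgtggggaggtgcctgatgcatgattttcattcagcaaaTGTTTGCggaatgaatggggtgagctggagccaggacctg

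The outer CDH2 window is 67.0% G and C and holds none of the 4 motifs. The inner window is 40.7% G and C, with 1 FOXA match beginning 185 bases before the start and 1 TATA match beginning 32 bases before it. The KRT8 window is 50.7% G and C and has 1 FOXA match, 10 bases after the start. Of 35116 promoter windows of the same length, 18.0% hold the FOXA motif, 10.3% the GATA motif, 20.6% the E-box and 11.5% the TATA box, so matches are common, and a match describes letters only. GENCODE 29 places 9 coding-transcript starts in KRT8, of which 1 lies within 1 kb of the start shown. In CDH2 it places 5, with 1 within 1 kb of each start shown. The outermost of these, 28177446, lies before the whole outer window, so by that annotation the outer window is transcribed. Reads at a 3′ end do not tell which start a transcript used. CDH1 and KRT7 have no window shown.

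The comparison of endoderm with hESCs asks how the adhesion and filament genes differ between the differentiated and the pluripotent state. CDH2 and KRT8 were higher in endoderm, and CDH1 and KRT7 were lower, in all 3 phases. CDH2 was 4.93-fold higher by the ratio of means and KRT8 6.25-fold, whereas CDH1 was 4.38-fold lower and KRT7 5.21-fold lower. All 4 passed the threshold of 0.05 with limma on log2(signal + 1), 2 higher and 2 lower. The 4 genes were chosen with earlier results of these data known, so that they passed is no independent result. Of all 14657 regions tested, 14.5% passed, 6.9% higher and 7.6% lower in endoderm, and the median log2 difference was 0.02. For each of the 4 genes the 3 endoderm libraries did not overlap the 3 hESC libraries, as was the case for 33.4% of all regions tested. In bulk RNA, fewer cells that make a transcript and less of it per cell cannot be told apart.

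**Figure D1:**
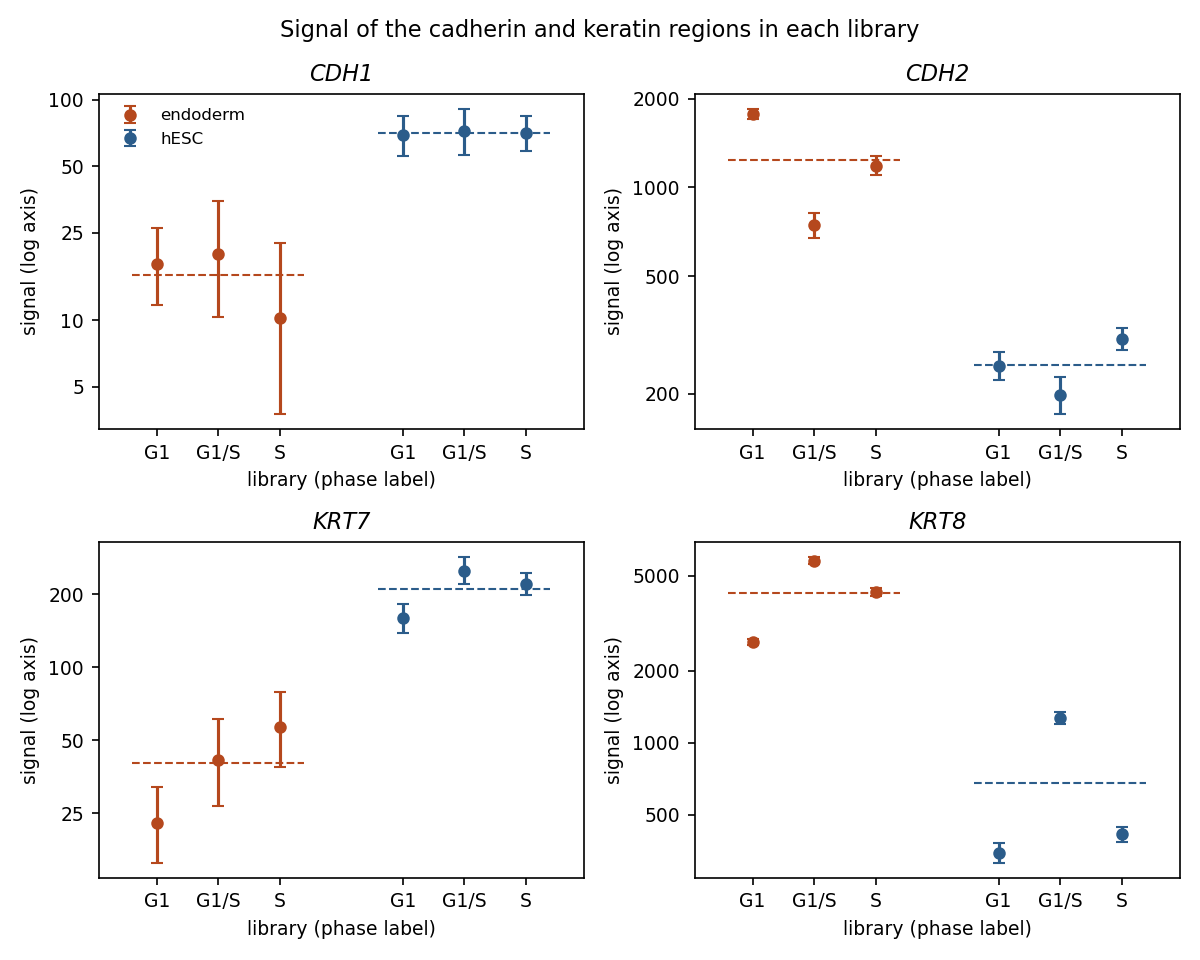
Signal of CDH1, CDH2, KRT7 and KRT8 (log axis) in each library, endoderm to the left of hESC and phases in order, with exact 95% counting intervals and the mean of each cell type as a dashed line. CDH2 and KRT8 stand higher in all 3 endoderm libraries, the lowest of which are 744 and 2644, and CDH1 and KRT7 stand lower, at no more than 20.0 and 56.5.

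CDH1 had a signal of 18.0, 20.0 and 10.3 in endoderm at G1, G1/S and S, against 68.8, 71.8 and 70.3 in hESCs at G1, G1/S and S. The hESC libraries lie close together, and every endoderm library is below them. These values rest on few endoderm reads, 26, 12 and 6, against 91, 69 and 119 in hESCs. The counting interval of endoderm S, 3.77 to 22.4, still ends below that of the lowest hESC library, 55.4 to 84.5. CDH1 averaged 16.1 ± 5.12 in endoderm and 70.3 ± 1.50 in hESCs (SD, n = 3 each), which on the log2 scale is a difference of -2.11 ± 0.39 (SE; limma adjusted p = 0.0174). By phase it was lower by 3.83-fold in G1 (counting interval 2.46 to 6.18), 3.60-fold in G1/S (1.93 to 7.30) and 6.84-fold in S (3.05 to 19.0). The call was lost without both G1/S libraries (log2 difference -2.27, limma adjusted p = 0.0786) and without hESC G1/S, hESC S or endoderm G1/S alone, with adjusted p between 0.0641 and 0.0810.

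CDH2 had a signal of 1777, 744 and 1186 in endoderm at G1, G1/S and S, against 248, 198 and 307 in hESCs at G1, G1/S and S. The lowest endoderm library, G1/S, stands above the highest hESC library, S, and the endoderm libraries spread more widely. CDH2 averaged 1235 ± 518 in endoderm and 251 ± 54.4 in hESCs (SD, n = 3 each), which on the log2 scale is a difference of 2.23 ± 0.28 (SE; limma adjusted p = 0.00509). The ratio of endoderm to hESC was 7.16 in G1 (counting interval 6.38 to 8.06), 3.76 in G1/S (3.17 to 4.48) and 3.87 in S (3.45 to 4.34). It was thus largest between the G1 libraries, though with 1 library per type and phase that difference has no replicate check. Without both G1/S libraries the log2 difference was 2.39, and the call held in all 6 fits that leave out 1 library.

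Reads of the 2 cadherins can be set against each other within a library, which removes the size factor. CDH2 took 99.0%, 97.4% and 99.1% of the reads of CDH1 and CDH2 in endoderm at G1, G1/S and S, with exact Clopper-Pearson 95% intervals of 98.5 to 99.3, 95.5 to 98.6 and 98.1 to 99.7. In hESCs it took 78.3%, 73.4% and 81.3%, with intervals of 74.0 to 82.1, 67.5 to 78.6 and 78.1 to 84.3. The mean share was 98.5% ± 0.975 in endoderm and 77.7% ± 4.03 in hESCs (SD, n = 3 each), a difference of 20.8 percentage points. An exact two-sided permutation test that did not pair libraries by phase gave p = 0.1, the smallest that 3 against 3 libraries allow. CDH2 reads outnumbered CDH1 reads in hESCs too, but how well each 3′ end is captured is not known, so the share is compared between libraries and not read as a ratio of molecules.

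**Figure D2:**
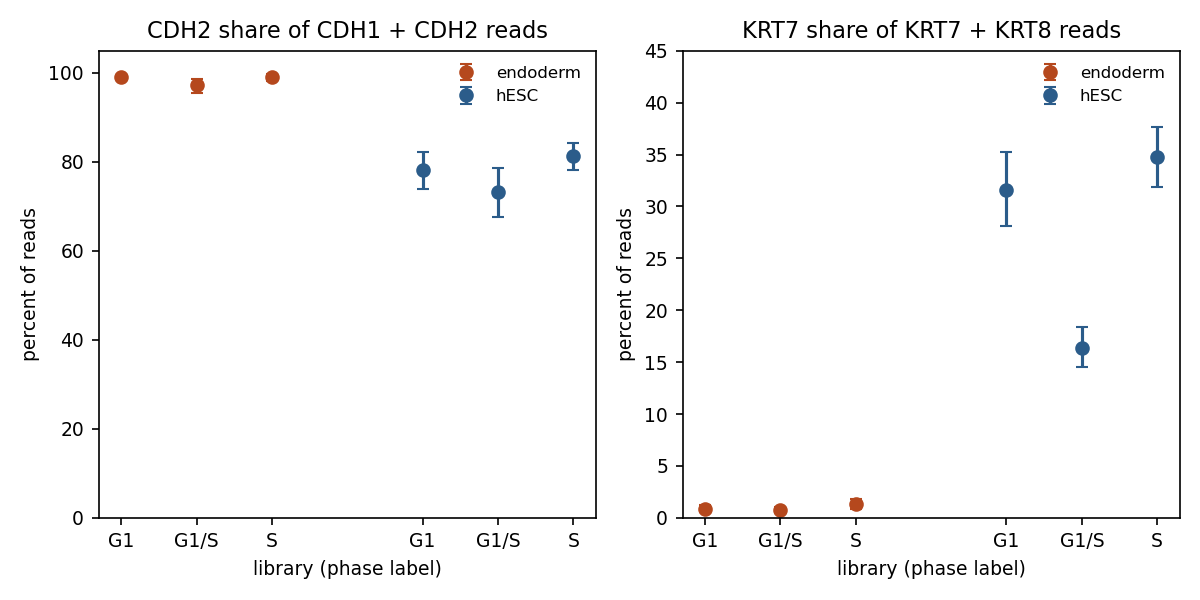
Share of CDH2 among reads of CDH1 and CDH2 (left) and of KRT7 among reads of KRT7 and KRT8 (right), in percent, for each library with exact 95% intervals, endoderm left of hESC. The CDH2 share is 97.4% or more in endoderm and at most 81.3% in hESCs, and the KRT7 share is at most 1.30% in endoderm and at least 16.4% in hESCs.

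KRT8 had a signal of 2644, 5780 and 4279 in endoderm at G1, G1/S and S, against 346, 1273 and 413 in hESCs at G1, G1/S and S. The hESC G1/S library stands well above the other hESC libraries but below every endoderm library. KRT8 averaged 4234 ± 1568 in endoderm and 677 ± 517 in hESCs (SD, n = 3 each), which on the log2 scale is a difference of 2.83 ± 0.28 (SE; limma adjusted p = 0.00311). The ratio of endoderm to hESC was 7.65 in G1 (counting interval 6.94 to 8.45), 4.54 in G1/S (4.25 to 4.85) and 10.4 in S (9.53 to 11.3). It was smallest between the G1/S libraries, the phase in which hESCs had most KRT8. The call held in all 6 fits that leave out 1 library, and the log2 difference was 3.15 without both G1/S libraries.

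KRT7 had a signal of 22.8, 41.6 and 56.5 in endoderm at G1, G1/S and S, against 160, 250 and 220 in hESCs at G1, G1/S and S. The highest endoderm library, S, lies well under the lowest hESC library, G1. The endoderm values rest on 33, 25 and 33 reads. KRT7 averaged 40.3 ± 16.9 in endoderm and 210 ± 45.9 in hESCs (SD, n = 3 each), which on the log2 scale is a difference of -2.42 ± 0.33 (SE; limma adjusted p = 0.00620). By phase it was lower by 7.01-fold in G1 (counting interval 4.84 to 10.4), 6.01-fold in G1/S (3.97 to 9.47) and 3.89-fold in S (2.72 to 5.74). The call was lost without hESC G1/S (log2 difference -2.35, limma adjusted p = 0.0610) and without both G1/S libraries (adjusted p = 0.0591), with little change in size.

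The 2 type II keratins thus moved in opposite directions. In endoderm at G1, G1/S and S, KRT7 took 0.854%, 0.714% and 1.30% of the reads of KRT7 and KRT8, against 31.6%, 16.4% and 34.7% in hESCs. The low hESC G1/S share goes with the high KRT8 signal of that library. The mean share was 0.957% ± 0.307 in endoderm and 27.6% ± 9.80 in hESCs (SD, n = 3 each). The exact two-sided permutation test, again without pairing by phase, gave p = 0.1, the smallest possible.

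The order of the 6 libraries shows which levels counting error separates. For CDH1 the 3 hESC libraries cannot be separated from each other, nor can neighbours among the 3 endoderm libraries, and the gap lies between the types. For KRT7 neither hESC G1/S and S nor endoderm S and G1/S can be separated. The intervals of endoderm G1/S and G1 overlap too, but that of their ratio, 1.83, runs from 1.04 to 3.16 and lies above 1. For CDH2 the order was endoderm G1, S and G1/S, then hESC S, G1 and G1/S, and only the intervals of the last pair, hESC G1 and G1/S, overlap, though the interval of their ratio, given next, ends below 1. For KRT8 the order was endoderm G1/S, S and G1, then hESC G1/S, S and G1, and no neighbouring intervals overlap.

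Phase was examined next, in values within each cell type and in phase terms shared by both types. KRT8 was highest at G1/S in both types: its G1/S signal was 2.19 times that of G1 in endoderm (counting interval 2.09 to 2.29) and 3.68 times in hESCs (3.30 to 4.11). CDH2 was lowest at G1/S in both, at 0.419 of its G1 signal in endoderm (0.378 to 0.463) and 0.797 in hESCs (0.663 to 0.956). KRT7 was lowest in G1 in both types, with an S signal 2.48 times that of G1 in endoderm (1.48 to 4.14) and 1.38 times in hESCs (1.16 to 1.64). CDH1 stayed within counting error of its G1 level in each type, with intervals for S over G1 of 0.193 to 1.42 in endoderm and 0.771 to 1.36 in hESCs. Between S and G1 CDH2 went opposite ways, to 0.668 of its G1 signal in endoderm (0.613 to 0.726) and 1.24 times it in hESCs (1.07 to 1.42). Each of these ratios compares 2 libraries and has no replicate check.

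**Figure D3:**
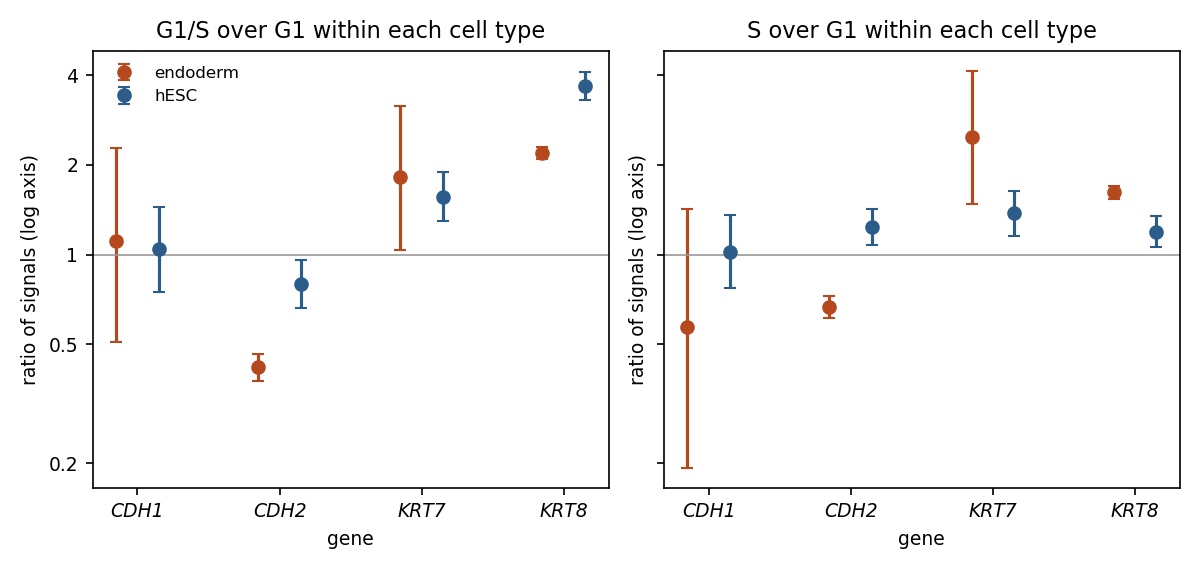
Ratio of the G1/S signal (left) and of the S signal (right) to the G1 signal for each gene (log axis, line at 1), in endoderm and hESC, with exact 95% counting intervals. KRT8 lies above 1 and CDH2 below 1 at G1/S in both types, and CDH2 at S lies at 0.668 in endoderm and 1.24 in hESC.

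No phase term passed. For G1/S against G1 the log2 differences were 1.50 ± 0.34 (SE) for KRT8, -0.79 ± 0.34 for CDH2, 0.74 ± 0.40 for KRT7 and 0.10 ± 0.48 for CDH1 (limma adjusted p = 0.362, 0.368, 0.413 and 0.926). With 95% intervals of 0.71 to 2.29 for KRT8 and -1.60 to 0.01 for CDH2, differences of that size remain possible. Over all regions 0% were called by limma, with 2002 of 14657 at an unadjusted p under 0.05, 0 by edgeR and 108 by DESeq2, KRT8 among the last (adjusted p = 0.0401). For S against G1 they were 0.47 ± 0.34 for KRT8, -0.14 ± 0.34 for CDH2, 0.87 ± 0.40 for KRT7 and -0.36 ± 0.48 for CDH1 (limma adjusted p of 0.982 to 0.992). There too 0% of regions were called by limma, with 497 at an unadjusted p under 0.05, 0 by edgeR and 1 by DESeq2.

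GC content differs among the 4 genes. The last 500 transcript bases hold 31.0% G and C in CDH2 and 34.4% in CDH1, at the 7.28th and 17.0th percentile of named regions, and 53.6% in KRT8 and 60.4% in KRT7, at the 70.0th and 89.6th. After a GC correction, chosen after seeing the data, the G1/S against G1 difference was -0.23 for CDH2, 0.28 for KRT7, 0.67 for CDH1 and 1.34 for KRT8. Those of CDH2 and KRT7 thus lost most of their size, that of CDH1 grew, and that of KRT8 changed least in proportion. For S against G1 that of CDH2 was 0.04 after the correction and -0.14 before it. The endoderm against hESC differences after that correction were 2.06 for CDH2, 2.99 for KRT8, -2.28 for CDH1 and -2.10 for KRT7, and all 4 passed.

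The other genes of cell adhesion and of the intermediate filaments were described from lists chosen with earlier results of these data known. Counts of each list stand beside the shares of all regions tested, 6.9% higher and 7.6% lower in endoderm. Among cadherins, 7 of 21 listed had a region. Of these, 1 was higher in endoderm (CDH2) and 2 were lower, CDH1 and CDH15, the cadherin of muscle. Without CDH1 and CDH2, which were chosen with earlier results known, 0 of 5 were higher and 1 was lower. CDH15 had a signal of 1.38, 1.66 and 1.71 in endoderm at G1, G1/S and S, all under the limit that a count of 0 allows, against 18.9, 34.4 and 21.9 in hESCs (limma adjusted p = 0.0196). CDH3 (P-cadherin), the neighbour of CDH1 on chromosome 16, was at 89.8, 54.9 and 71.9 in endoderm against 120, 78.1 and 239 in hESCs, with a log2 difference of -0.88 ± 0.37 (SE). CDH13, which lacks a cytoplasmic tail, had a difference of 1.27 ± 0.39, CDH4 (R-cadherin) of 0.37 ± 0.32 and CDH24 of 0.33 ± 0.47, none past the threshold.

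Of 13 measured adherens junction partners 1 was higher and 1 lower, a share near the 14.5% of all regions, with a median log2 difference of 0.31. The 2 genes called are nectins, adhesion molecules that work beside cadherins: PVRL2 rose to 1791, 3394 and 2521 in endoderm, against 1226, 1722 and 1041 in hESCs (log2 difference 0.93), and PVRL1 fell to 269, 354 and 435, against 812, 1140 and 1096 (-1.53). PVRL2, PVRL1, VCL and ACTN1 have 2 regions each and the more abundant one is given. The catenins that bind the cadherin tail had log2 differences of -0.05 ± 0.27 (SE) for CTNNB1 (95% interval -0.69 to 0.58), -0.20 ± 0.31 for CTNNA1 and -0.52 ± 0.41 for CTNND1. JUP (plakoglobin), which also serves desmosomes, had 0.82 ± 0.25 (limma adjusted p = 0.0693). The actin linkers VCL, ACTN1 and ACTN4 had 0.68, 1.12 and 0.33, MLLT4 -1.31, JUB 2.09, LIMD1 0.31 and CTNNBIP1, an inhibitor of beta-catenin, 0.22, none of them called.

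Of 9 measured desmosome genes 1 was higher and 3 lower, against 6.9% and 7.6% of all regions tested. DSP (desmoplakin), which ties keratin filaments to desmosomes, rose to 391, 158 and 717 in endoderm at G1, G1/S and S, against 94.6, 41.6 and 138 in hESCs (log2 difference 2.10 ± 0.28 SE, limma adjusted p = 0.00604). The plakophilins PKP1, PKP3 and PKP4 fell, with log2 differences of -3.30, -1.13 and -3.44, and PKP2 had a difference of 0.45 ± 0.79 that did not pass. PKP1 had 0, 3 and 0 reads in endoderm against 17, 18 and 34 in hESCs. PKP4 was at 15.2, 1.66 and 8.56 in endoderm, against 228, 6.25 and 314 in hESCs, so its groups overlap through hESC G1/S. The desmosomal cadherins DSG2 and DSC2 had differences of 0.80 ± 0.45 and 0.75 ± 0.49.

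Of 7 listed simple epithelial keratins 4 had a region, of which KRT8 and KRT19 were higher and KRT7 lower. Without KRT7 and KRT8, which were chosen with earlier results known, 1 of 2 was higher and 0 were lower. The shares over all regions tested were 6.9% and 7.6%. KRT19, a type I keratin, rose to 7628, 10576 and 6968 in endoderm at G1, G1/S and S, against 4448, 5246 and 4144 in hESCs (log2 difference 0.85 ± 0.19 SE, limma adjusted p = 0.0296). The summed signal of the 4 genes was 10324 to 16445 in endoderm and 4785 to 6802 in hESCs. KRT18 is the usual partner of KRT8, and its region lies 55178 bases from that of KRT8 on the opposite strand. KRT18 was at 29.0, 48.2 and 47.9 in endoderm, against 2.27, 32.3 and 8.86 in hESCs. Its log2 difference was 2.02 ± 0.58 (SE, limma adjusted p = 0.0572), and it shares with KRT8 the highest hESC level at G1/S. The hESC G1 value of KRT18 is 3 reads.

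Of 3 measured keratins of stratified epithelia KRT17 fell, to 4.83, 26.6 and 17.1 in endoderm against 83.2, 138 and 91.6 in hESCs (log2 difference -2.85), while KRT15 (-2.07) and KRT10 (0.68) did not pass. Of 13 measured genes in a list of other filament proteins and filament linkers, which holds PKP1 again, 3 were higher and 2 lower. The shares over all regions tested were 6.9% and 7.6%. VIM (vimentin), the filament of mesenchymal cells, rose to 3273, 2956 and 4106 in endoderm against 2509, 989 and 1800 in hESCs (log2 difference 1.05 ± 0.27 SE, limma adjusted p = 0.0431). The neurofilaments NEFL and NEFM rose by 2.79 and 4.23, and the muscle filament DES fell by 4.39 on the log2 scale.

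**Figure D4:**
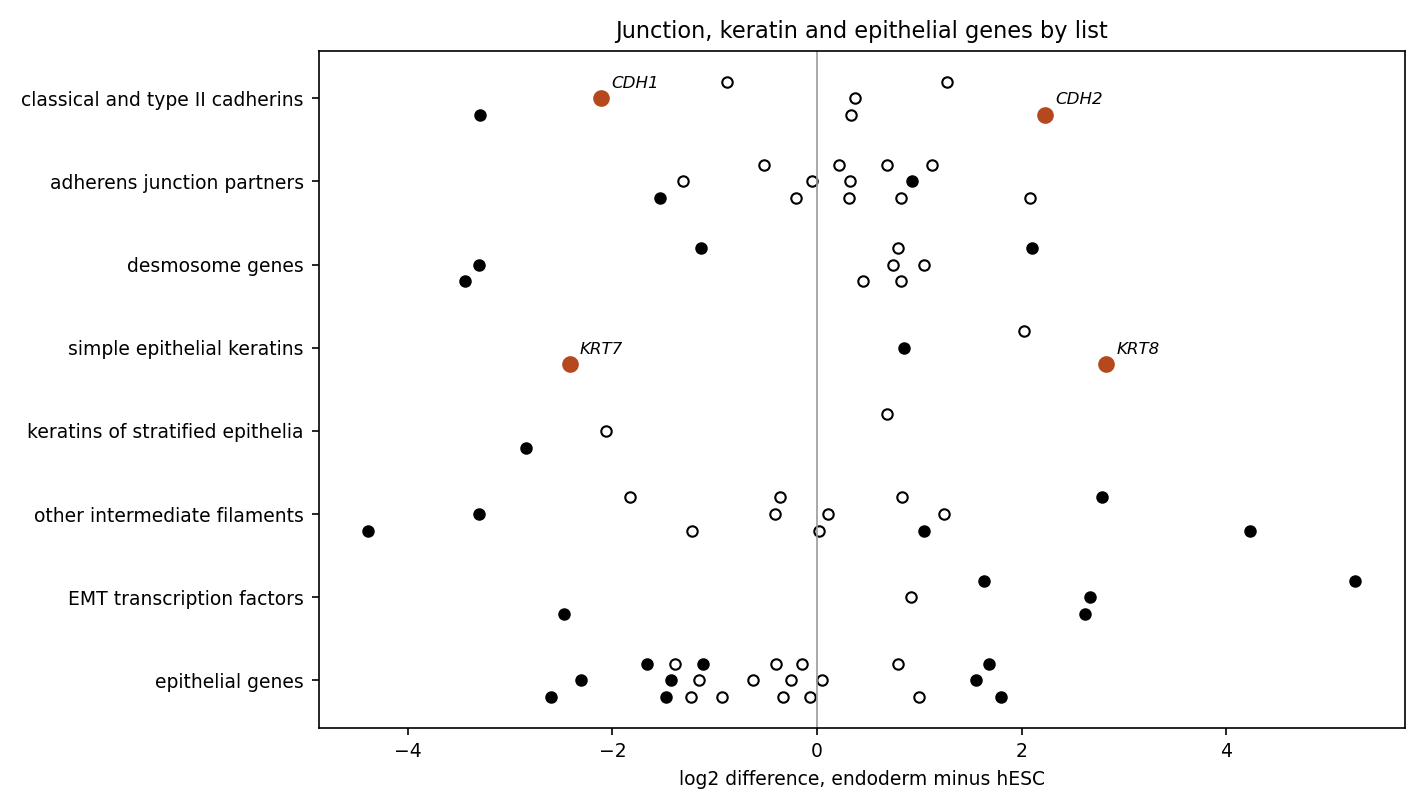
Log2 difference of signal + 1 (endoderm minus hESC) for each measured gene of 8 lists, filled where limma's adjusted p is under 0.05 and open otherwise, with the 4 genes CDH1, CDH2, KRT7 and KRT8 in orange. CDH1 (-2.11) and KRT7 (-2.42) lie left of 0, and CDH2 (2.23) and KRT8 (2.83) right of it.

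Among factors known to repress CDH1 or to promote epithelial-mesenchymal transition, 6 of 13 had a region. Of these, 4 were higher in endoderm and 1 lower, with a median log2 difference of 2.13. Over all regions tested 6.9% were higher and 7.6% lower, with a median of 0.02. SNAI1, a repressor of CDH1, was at 66.3, 419 and 149 in endoderm at G1, G1/S and S, against 34.8, 63.5 and 60.3 in hESCs (log2 difference 1.64 ± 0.41 SE, limma adjusted p = 0.0401). Its endoderm G1 value, from 96 reads, lies close to those of hESC G1/S and S, from 61 and 102 reads. The endoderm mean rests largely on the G1/S library. GSC, TWIST1 and FOXC2 rose by 5.26, 2.62 and 2.67, and SNAI3 fell by 2.47 on the log2 scale. TCF3 did not pass (0.92 ± 0.34). GSC is also on the definitive endoderm list and TWIST1 on the mesoderm list. SNAI2, ZEB1, ZEB2, TWIST2, KLF8, LEF1 and PRRX1 were not analysed here.

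Of 22 measured epithelial genes 3 were higher and 6 lower in endoderm, with a median log2 difference of -0.51. Over all regions tested the shares were 6.9% and 7.6%, and the median was 0.02. Those that fell were the claudins CLDN3 (-1.11) and CLDN7 (-1.42), the membrane protease ST14 (-1.67) and the epithelial transcription factor ELF3 (-1.48). The tight junction proteins TJP3 (-2.31) and MARVELD2 (-2.60) fell too. The groups overlap for CLDN3 through hESC S and for MARVELD2 through hESC G1/S. Those that rose were the tight junction protein TJP1 (1.55), the small GTPase RAB25 (1.79) and the protease inhibitor SPINT2 (1.69). EPCAM, an adhesion molecule of epithelia and pluripotent cells, was at 217, 81.5 and 73.6 in endoderm against 136, 72.9 and 119 in hESCs, with a log2 difference of 0.05 ± 0.36 (95% interval -0.79 to 0.88). Epithelial genes thus went both ways, as the keratins did.

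The counts of these lists shrink without the G1/S libraries, as does the share of all regions called, 2.83% then. All calls are to be read with that limit, and the counts that follow include CDH1, CDH2, KRT7 and KRT8. Cadherins were then 1 higher and 0 lower, simple epithelial keratins 1 and 0, junction partners 0 and 0, desmosome genes 1 and 1, epithelial genes 1 and 1, and the epithelial-mesenchymal factors 2 and 1. Other filament genes were 0 and 1, so that VIM, NEFL and NEFM were no longer called, and keratins of stratified epithelia 0 and 0. Stromal markers were 1 and 0, trophoblast markers 0 and 0, neuroectoderm markers 2 and 0, mesoderm markers 2 and 0, definitive endoderm markers 9 and 0 and pluripotency markers 1 and 2. With edgeR, which called 13.6% of all regions, cadherins were 1 and 2, simple epithelial keratins 2 and 1, junction partners 0 and 1, desmosome genes 1 and 2, epithelial genes 3 and 6 and the epithelial-mesenchymal factors 4 and 1. Without the intensity trend, which called 1466 regions, they were 1 and 2, 1 and 1, 0 and 1, 1 and 1, 0 and 3, and 3 and 1 in the same order. After the GC correction, which called 19.5%, they were 1 and 2, 3 and 1, 1 and 0 of 9 with a value, 3 and 2, 4 and 5 of 20, and 4 and 1.

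CDH2 and VIM are also markers of other lineages, so lists of those were counted. Beside them stand the shares of all regions tested, 6.9% higher and 7.6% lower. Of 5 measured mesoderm markers of 12 listed, 2 were higher (MIXL1 at 4.13 and TWIST1 at 2.62) and 0 lower, with a summed signal of 561 to 1585 in endoderm and 119 to 149 in hESCs. Of 7 measured neuroectoderm markers of 12, 3 were higher (PAX6 at 4.40, OTX2 at 3.55 and NCAM1 at 1.31) and 1 lower (POU3F1 at -1.92), with sums of 5574 to 12211 and 6299 to 9495. Of 12 measured stromal markers of 16, 4 were higher (SPARC, TAGLN, VIM and COL5A1) and 3 lower (COL1A1, S100A4 and THY1). Their sums were 38068 to 81284 and 31948 to 48729. The groups of TAGLN overlap through hESC G1/S, which lies above endoderm G1. Of 5 measured trophoblast markers of 17, 1 was higher (GATA3 at 2.62) and 3 lower (KRT7, TFAP2C at -2.12 and the placental growth factor PGF at -2.32), with sums of 2633 to 3723 and 3129 to 4090. Without KRT7, 1 of 4 was higher and 2 were lower. No marker of these 4 lists that had a region was at 0 in all libraries of a type. Listed markers without a region were not measured. Single genes carry most of the neuroectoderm, stromal and trophoblast sums, so these sums do not measure a lineage. In endoderm NES was at 4854 to 10962, TAGLN at 25756 to 69770 and TEAD4 at 2397 to 3272. NES (0.10) and TEAD4 (-0.05) were not called. The part of other cell types in the 4 genes' differences was not tested.

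The genes with the profile nearest to each of the 4 were found by the root mean square difference of centred log2(signal + 1) over the 6 libraries, among genes with a mean signal of at least 50. Nearest to CDH1 were ATP5G1 (0.18), GYLTL1B (0.18) and ZDHHC22 (0.20), and to CDH2 AHNAK (0.20), BAMBI (0.23) and MCM6 (0.25). Nearest to KRT7 were COL5A3 (0.19), IL32 (0.20) and LAPTM5 (0.25). KRT8 had no neighbour as close, with COX7A1 (0.35), NR4A1 (0.40) and KIAA1856 (0.41). CDH2 lies 1.06 from KRT8 and ranks 431 of 5616 candidates by nearness to KRT8, whereas KRT8 ranks 1476 of 5616 by nearness to CDH2. KRT7 lies 0.64 from CDH1 and ranks 367 of 5617 by nearness to CDH1. Members with opposite directions rank between 5449 and 5531.

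**Figure D5:**
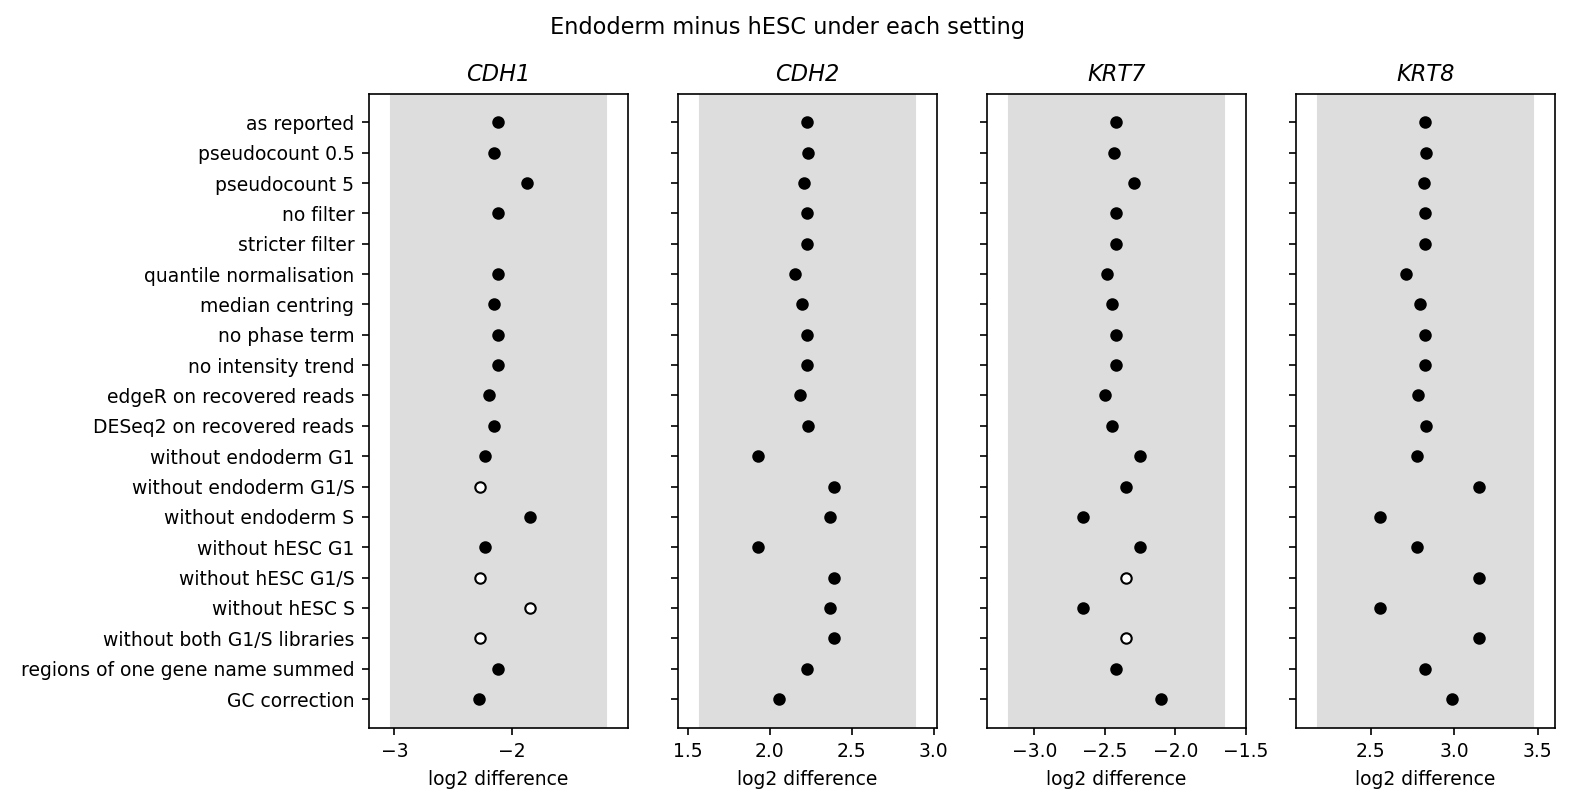
Log2 difference (endoderm minus hESC) of the 4 genes under each way of processing, filled where the adjusted p is under 0.05, with the 95% interval of the reported value in grey. The values stay between -2.28 and -1.84 for CDH1, 1.93 and 2.39 for CDH2, -2.66 and -2.10 for KRT7, and 2.56 and 3.15 for KRT8.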

How the data were processed

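Per the labels' protocols, polyadenylated RNA was fragmented, copied from an oligo(dT) primer and sequenced on a Genome Analyzer IIx. Tools listed in the submitters' processing notes are Bowtie 0.12.7, CASAVA 1.5 and DESeq 1.5.24, and builds are NCBI36 and hg18; what each was used for is not stated there. A single table was deposited by the authors, made up of signal values per region and library. These signal values are linear, and at a tolerance of 1e-06 100% of them are whole reads divided by 1 constant per library, so reads were recovered by dividing by the smallest value above 0.

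Regions with log2(signal + 1) of at least 1 in at least 3 libraries were kept, which left 14657 and removed 29. A model with cell type and phase was fitted with limma 3.58.1 in R 4.3.3 (intensity trend, 2 residual degrees of freedom, prior 5.46). Benjamini-Hochberg adjustment of the p-values ran over all regions tested, with a threshold of 0.05. Differences on the log2(signal + 1) scale understate those of weakly expressed genes. The script was tested on simulated data. edgeR 4.0.16 and DESeq2 1.42.0 were run on recovered reads as alternatives, with other pseudocounts, filters, scalings and left-out libraries. GC content came from GENCODE 29 transcripts (the last 500 bases) for 85.2% of named regions. Intervals and permutation tests used scipy 1.17.1. A gene with several regions is given by the one with the highest mean. Such genes include PVRL1, PVRL2, VCL, ACTN1, DSP, PKP4, TJP1, SPARC and POU5F1, and their other regions are not shown. Named genes are the 4 genes, list members that passed, all measured members of the cadherin, junction partner, simple keratin and epithelial-mesenchymal lists, and the 3 nearest profiles per gene. A few others (DSG2, DSC2, PKP2, KRT10, KRT15, EPCAM, POU5F1, NES and TEAD4) were named after their values were seen. The genes and lists were chosen with earlier results of these data known.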

Additional observations from a re-analysis of the deposited data

Results flagged for a closer look

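CDH2 differed in the direction of its S against G1 ratio between the cell types, to 0.668 of the G1 signal in endoderm and 1.24 times it in hESCs, with both counting intervals excluding 1. The difference was not tested, as each type has 1 library per phase, and the S libraries were taken at 6 h in endoderm and 3 h in hESCs. GC content moves with it: CDH2 is at the 7.28th GC percentile, and the library correlation with GC was -0.17 in endoderm S and -0.40 in endoderm G1, against -0.11 in hESC S and 0.0043 in hESC G1. After the GC correction the S against G1 difference shared by both types was 0.04, against -0.14 before it, and the part of GC content in the difference between the types was not tested.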

How the results depend on the processing

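The endoderm against hESC differences of CDH2 and KRT8 kept their direction and passed under all 19 alternatives, and those of CDH1 and KRT7 kept their direction under all 18 and 19 run (the stricter filter, a mean signal of at least 50, removes CDH1). CDH1 did not pass without both G1/S libraries (-2.27), and with 1 library left out it ranged from -2.27 to -1.84 and passed in 3 of 6 fits. KRT7 did not pass without both G1/S libraries (-2.35), and with 1 left out it ranged from -2.66 to -2.25 and passed in 5 of 6. Regions called number 2125 as reported, 986 with the stricter filter, 415 without both G1/S libraries and 419 to 2344 with 1 library left out (2344 without endoderm G1, 571 without endoderm G1/S, 1200 without endoderm S, 2236 without hESC G1, 419 without hESC G1/S and 975 without hESC S). For S against G1, DESeq2 called 1, and leaving out 1 library gave 0 to 201, with 201 without endoderm G1. For G1/S against G1, DESeq2 called 108, and leaving out 1 library gave 0 to 329, with 329 without hESC G1 and 196 without endoderm G1. The cadherin and keratin shares kept their direction throughout, at 18.7 to 22.7 and -32.2 to -23.0 percentage points. The GC correction and the list counts under other settings were chosen after seeing the data. The cause of lost calls was not tested. Under the phase term a library whose phase partner is left out adds nothing to the difference, so both give 1 value. The phase term makes the reported fit paired by phase label (the replicate block), and without it CDH1, CDH2, KRT7 and KRT8 kept -2.11, 2.23, -2.42 and 2.83, all passed, and 1825 regions were called. Endoderm values of CDH1 and KRT7 are limited by depth, at 6 to 33 reads a library.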

Other observations

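Unnamed regions near the 4 genes were read off as values. Distances run between 3′ end regions and not from the genes, so such a region can lie within a gene's span. Whether it does was not checked on the deposited build. An unnamed region 923 bases from CDH2 on the opposite strand had 6.21, 59.9 and 17.1 in endoderm at G1, G1/S and S, against 7.57, 12.5 and 5.91 in hESCs, so it was highest in the endoderm library in which CDH2 was lowest (log2 difference 1.11, limma adjusted p = 0.244). An unnamed region lies 60299 bases before the CDH1 region on the same strand. It had 0.690, 0 and 0 in endoderm and 9.84, 30.2 and 11.8 in hESCs (limma adjusted p = 0.0386). On GRCh38, GENCODE 29 places CDH1 starts from 68737225 to 68823245, farther apart than that distance, so this region may lie within CDH1. The 2 unnamed regions 50369 and 51317 bases from KRT8 had log2 differences of 0.23 and -0.11, with limma adjusted p = 0.757 and 0.875.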
